A study of Rattus norvegicus with 6 samples.

Results

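The mitochondrial ribosomal protein genes were examined in cultured ventricular heart muscle cells of newborn rats. They were chosen by name, as the protein-coding genes whose symbol starts with Mrpl (large subunit) or Mrps (small subunit). This gave 76 of the 34257 genes in the deposited table, 46 named for the large and 30 for the small subunit. Of these, 73 were abundant enough to be tested (44 large, 29 small). A further 3 genes spelled in lower case, mrpl9, mrpl11 and mrpl24, fall outside the spelling and are given separately. The cells came from neonatal rats and received either vehicle or perhexiline at 1 µM for 24 h, with 3 libraries of poly(A) RNA per group. Perhexiline, a drug used against angina, blocks carnitine palmitoyltransferase and so the entry of long-chain fatty acids into mitochondria. No genotype, strain or transgene is named for either group, and the duration of vehicle exposure is not stated apart from that of the drug.

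The mitochondrial ribosome, or mitoribosome, sits at the inner mitochondrial membrane and makes the few membrane proteins of the respiratory chain and ATP synthase that the mitochondrial genome encodes. Its RNA comes from that genome, whereas its proteins are encoded in the nucleus, made in the cytosol and imported. Some of these proteins descend from bacterial ribosomal proteins and others were added in mitochondria. Heart muscle depends on oxidative metabolism, and inherited defects of several mitoribosomal proteins cause cardiomyopathy in humans.

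The libraries held 13616252 to 16702523 fragments, recovered from the deposited values as described with the processing, and 45394 to 56728 of them per library lay in the 76 genes. Values are FPKM, which here scale fragments by gene length and by a deposited factor per library that is not the fragment total. These factors differed by -1.27% to -0.0163% from factors computed as each library's median ratio to the gene-wise mean. Total-fragment scaling, used below as an alternative, divides by the fragment total instead. A tested gene had at least 1 FPKM in at least 3 libraries, differences are on the log2(FPKM + 1) scale as perhexiline minus vehicle, and a gene was called at an adjusted p under 0.05 in a limma fit over all 13460 tested genes. Since nothing in the labels ties replicates to different cultures or litters, p-values cover the spread among these libraries, and that spread may be technical. All 11 cardiomyocyte markers found in the table were tested, and they summed to 17177 to 24235 FPKM per library. Markers of other cell types were present as well, with per-library sums of 1003 to 1083 FPKM for fibroblasts, 609.0 to 1122 for smooth muscle and pericytes, 29.0 to 52.8 for macrophages and 16.7 to 19.8 for endothelium, and no marker found was at 0 in all vehicle libraries. In bulk RNA, fewer cells of a type and less RNA per cell cannot be told apart.

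Across the mitoribosome, 1 of 73 tested genes passed the test, Mrpl16, which fell to 0.790 times its vehicle mean. No other gene of the large subunit and no gene of the small subunit was called. Among all tested genes 6.66% were called, 3.55% higher and 3.11% lower, so that 53.3% of calls were higher (71.0% under total-fragment scaling). Perhexiline and vehicle means lay within 0.1 of each other on the log2 scale for 42 of the 73 genes (5612 of the 13460 tested genes), and the 95% interval of the difference stayed inside a 1.5-fold change in either direction for 71, all but Mrpl1 and Mrpl30 (11071 of the 13460). Mitoribosomal genes were more abundant than the median tested gene, and their replicate spread was lower. The summed level of the 76 genes was 2916, 2946 and 2866 FPKM in vehicle replicates 1 to 3 and 2917, 2871 and 2750 FPKM in perhexiline replicates 1 to 3. The groups overlapped in this sum, with perhexiline replicate 3 the lowest library.

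Levels differed far more between genes than between treatments. The median level was 36.1 FPKM for the large subunit and 32.7 FPKM for the small subunit, and 69 of the 73 genes had a mean between 10 and 100 FPKM. The most abundant by FPKM was Mrpl33, a small protein of the large subunit with a bacterial counterpart. This rank depends on its listed length of 236 bases, since it had 556 to 646 fragments per library. Mrpl12, listed at 1563 bases, had 2053 to 2519. The level of Mrpl33 was 174, 179 and 171 FPKM with vehicle and 157, 170.5 and 135 FPKM with perhexiline. All perhexiline libraries lay below all vehicle libraries, but the difference of -0.19 ± 0.082 (SE) did not pass (adjusted p = 0.207). Mrpl17 followed at 104, 103 and 93.8 FPKM against 102, 103 and 96.5 FPKM, with overlapping groups. The third was Mrpl12, the stalk protein that in bacteria recruits translation factors to the ribosome, at 95.5, 105 and 96.8 FPKM with vehicle and 90.8, 91.4 and 85.5 FPKM with perhexiline. Its groups did not overlap, and its difference of -0.15 did not pass (adjusted p = 0.139). Mrpl17 and Mrpl12 did not differ beyond their spread with vehicle, at 100.4 ± 5.76 and 99.2 ± 5.39 FPKM (mean ± SD, n = 3, as throughout).

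In the small subunit the most abundant genes were Mrps18a at 75.7 ± 2.63 FPKM, Mrps25 at 70.9 ± 3.53 and Mrps6 at 62.9 ± 2.74 with vehicle. With perhexiline they stood at 76.0 ± 1.35, 65.0 ± 5.08 and 65.0 ± 6.85 FPKM, and the groups overlapped for each. At the low end, Mrps10 stood at 13.5 ± 0.605 and 13.6 ± 1.86 FPKM, Mrps28 at 15.2 ± 1.01 and 14.6 ± 0.539, and Mrps15 at 17.5 ± 0.718 and 15.2 ± 2.09 FPKM with vehicle and perhexiline. Between replicates the median coefficient of variation of a mitoribosomal gene was 4.68% with vehicle and 4.92% with perhexiline, against 7.64% and 7.45% over all tested genes, whose median level was lower at 10.9 FPKM. Summed over 46 large and 30 small subunit names, the large subunit had 1.79 to 1.84 times the FPKM of the small in every library. The groups did not separate in this ratio, which partly reflects the larger number of large subunit names. Median levels per gene were 36.1 and 32.7 FPKM.

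**Figure D1:**
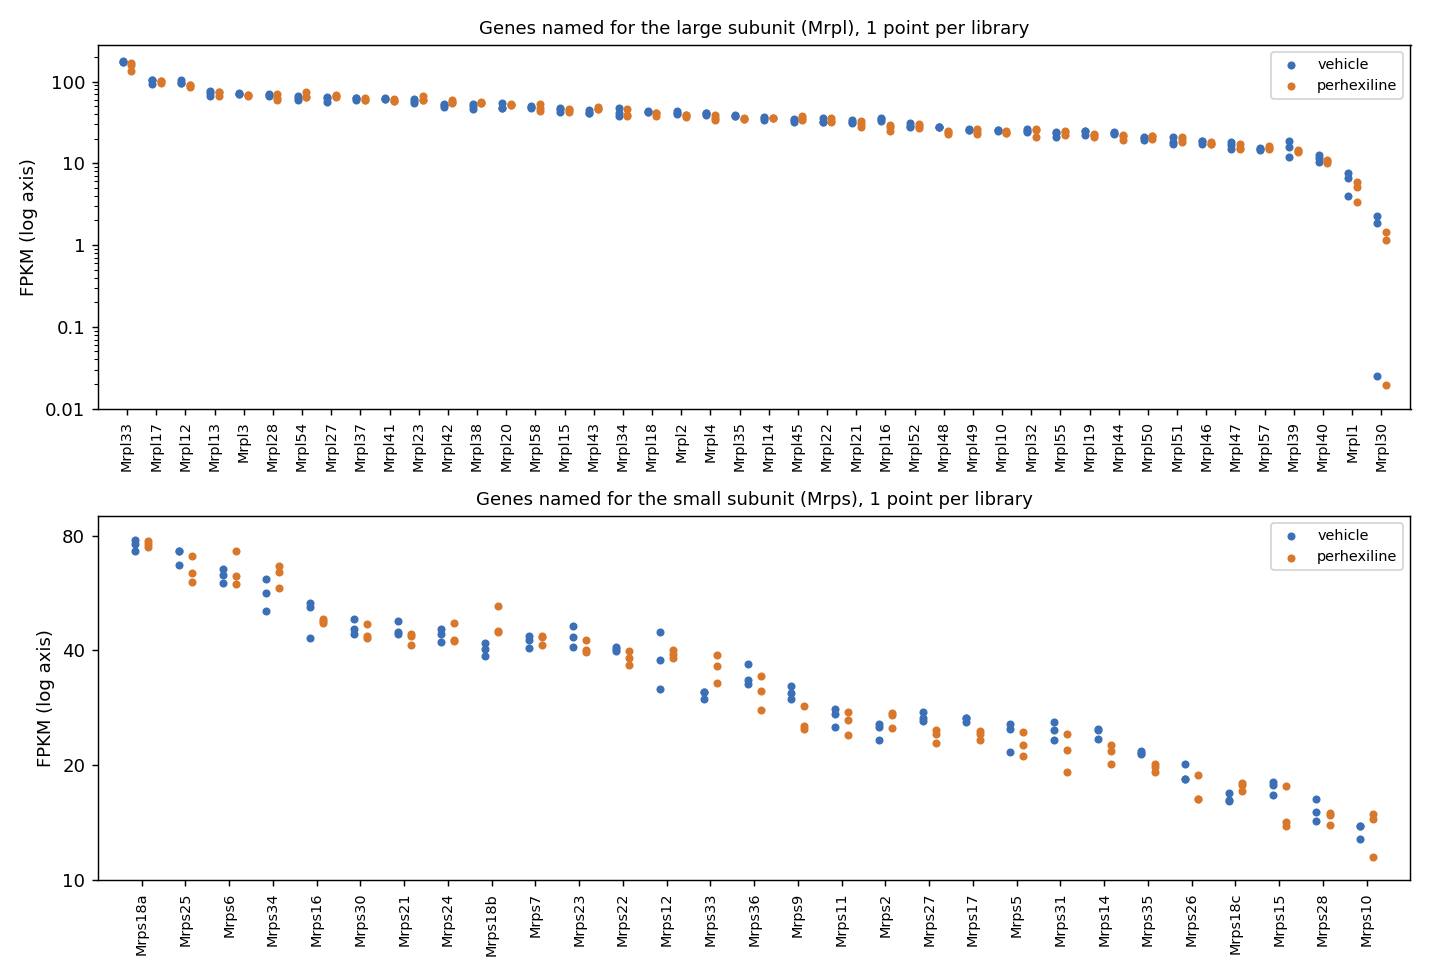
FPKM of the 73 tested mitoribosomal protein genes on log axes, 1 point per library, with genes ordered by mean level within the large (top) and small (bottom) subunit names. Vehicle (blue) and perhexiline (orange) points lie close together for nearly all genes, from Mrpl33 at over 100 FPKM down to Mrpl30, whose replicate 1 libraries lie near 0.

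Mrpl16 is the mitochondrial counterpart of bacterial L16, a protein near the tRNA binding sites of the large subunit. The gene lies on chromosome 1 from 228142778 to 228147579 in the deposited coordinates (build not given in the sources used here). Its level was 35.4, 33.1 and 35.2 FPKM in vehicle replicates 1 to 3 and 29.6, 24.9 and 27.5 FPKM in perhexiline replicates 1 to 3, from 449 to 588 fragments per library. Every perhexiline library lay below every vehicle library. The means were 34.6 ± 1.29 and 27.3 ± 2.35 FPKM, a difference of -0.33 ± 0.071 (SE; adjusted p = 0.0380). The call held in 1 of the 6 fits without 1 library. The adjusted p was 0.121, 0.0887 and 0.069 without vehicle replicates 1, 2 and 3, and 0.0312, 0.108 and 0.109 without perhexiline replicates 1, 2 and 3, with differences from -0.39 to -0.27. With no filter on low values it was 0.0816, and with total-fragment scaling 0.0508.

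Other genes had separated groups but did not pass the test. In all, 16 genes were lower and 7 higher in every perhexiline library than in any vehicle library, 21.9% and 9.59% of the 73, whereas 14.9% and 17.0% of all tested genes did so (31.9% in either direction). Mrpl48, named after its value was seen, was the uncalled member nearest the threshold, at 27.7, 27.4 and 27.7 FPKM with vehicle and 24.9, 24.2 and 22.8 FPKM with perhexiline. This large subunit protein differed by -0.20 ± 0.053 (SE; adjusted p = 0.0683). Mrps9, whose bacterial counterpart reaches the tRNA in the small subunit, was at 29.8, 32.2 and 30.9 FPKM with vehicle and 28.6, 25.4 and 24.9 FPKM with perhexiline. Its difference was -0.23 ± 0.066 (SE; adjusted p = 0.0805). The largest positive differences were those of Mrps18b and Mrps33, both small subunit proteins. Mrps18b stood at 38.6, 40.3 and 41.8 FPKM with vehicle and 44.9, 52.4 and 44.8 with perhexiline (0.23 ± 0.071 SE; adjusted p = 0.0984). Mrps33 stood at 31.1, 31.2 and 29.9 FPKM against 32.8, 38.9 and 36.4 (0.22 ± 0.069 SE; adjusted p = 0.0949). Perhexiline replicate 1 was the nearest to the vehicle libraries for Mrps9 and Mrps33. Without that library both genes passed, at adjusted p = 0.0455 for Mrps9 and 0.0449 for Mrps33, so that the small subunit counts went from 0 to 1 lower and 1 higher. In the fit with all libraries, 7 small subunit genes had an unadjusted p under 0.05, 5 lower and 2 higher, and limma-voom on the recovered fragments called none of the small subunit. Over all tested genes, 25.7% had an unadjusted p under 0.05.

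**Figure D2:**
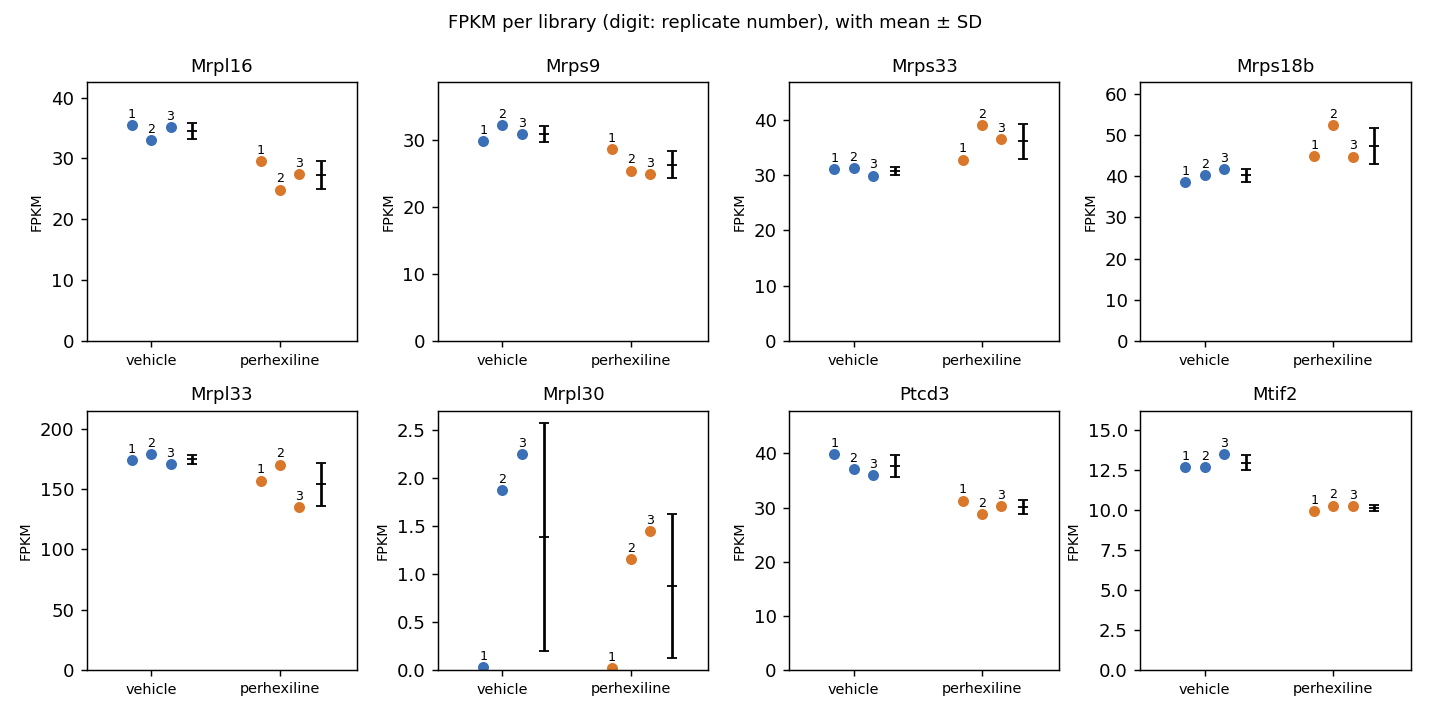
FPKM per library for 8 genes, with points numbered by replicate and bars for mean ± SD (n = 3), on linear axes that start at 0. Mrpl16, Mrps9, Ptcd3 and Mtif2 were lower, and Mrps33 and Mrps18b higher, in all perhexiline libraries, whereas Mrpl30 was near 0 in replicate 1 of both groups.

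The remaining genes at the ends of each subunit's range had small differences. In the large subunit the largest positive differences were those of Mrpl38 (49.4 ± 3.11 to 54.9 ± 0.815 FPKM), Mrpl43 (42.3 ± 1.85 to 46.7 ± 1.72) and Mrpl42 (51.6 ± 2.52 to 56.4 ± 2.53). None passed, with adjusted p of 0.144, 0.152 and 0.208. These 3 proteins belong to those added in mitochondrial ribosomes. Mrpl40, among the 3 least abundant with Mrpl30 and Mrpl1, stood at 11.5 ± 1.08 and 10.6 ± 0.516 FPKM. In the small subunit Mrps34, which mouse studies tie to the stability of the small subunit RNA, stood at 56.2 ± 5.43 and 63.0 ± 4.19 FPKM with overlapping groups (adjusted p = 0.248). Mrps31 (24.7 ± 1.34 and 21.8 ± 2.44 FPKM) and Mrps15 had the lowest differences after Mrps9, with adjusted p of 0.244 and 0.236. In the large subunit Mrpl1 and Mrpl30 had differences near -0.27 and -0.28, but their SE of 0.238 and 0.494 came from the widest replicate spread of all members.

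The 2 subunits were set side by side by the distribution of their differences. The median log2 difference was -0.05 over the 44 large subunit genes and -0.06 over the 29 small subunit genes, against 0.01 over all tested genes, and both medians were 0.00 under total-fragment scaling, where that of all genes was 0.06. Of the large subunit genes 30 were below 0 and 14 above, and of the small subunit genes 18 were below and 11 above, so that 65.8% of members were below 0, against 47.1% of all tested genes. Under total-fragment scaling 37 of the 73 were below 0, and the 47.1% belongs to the deposited scaling. The middle 50% of genes lay between -0.11 and 0.05 in the large and between -0.13 and 0.02 in the small subunit. These are descriptions of the genes, which were measured in the same libraries, and no test was made over the list.

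**Figure D3:**
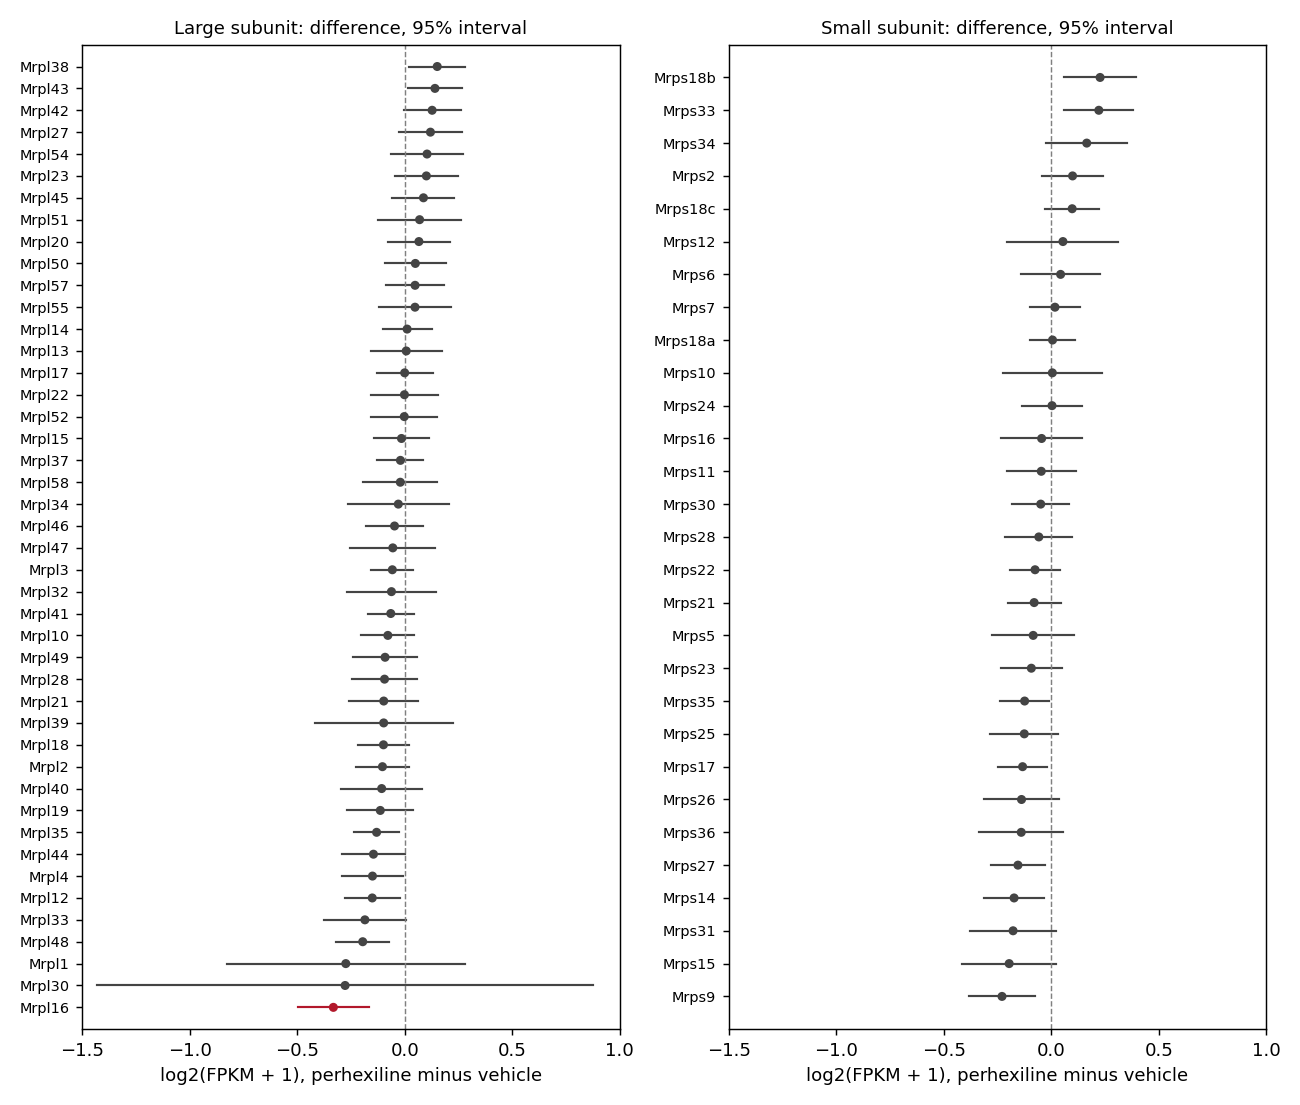
Difference in log2(FPKM + 1), perhexiline minus vehicle, for each tested gene with its 95% interval from the limma fit, large subunit on the left and small on the right. Mrpl16 (red) is the called gene, most intervals cross the dashed line at 0, and Mrpl30 and Mrpl1 have the widest intervals.

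Some members carry the name of one subunit but sit elsewhere in the mammalian structures. Mrps18a and Mrps30 are components of the large subunit. Mrps18a stood at 76.1, 72.9 and 78.1 FPKM with vehicle and 77.4, 74.7 and 75.9 with perhexiline, with an interval of the difference from -0.10 to 0.11. Mrps30 stood at 46.1 ± 2.16 and 44.6 ± 2.10 FPKM (adjusted p = 0.63). Mrps36, now regarded as a component of the 2-oxoglutarate dehydrogenase complex, stood at 34.3 ± 2.19 and 31.1 ± 3.19 FPKM with overlapping groups (adjusted p = 0.332). With these 3 placed by structure, the median was -0.05 for the large and -0.07 for the small subunit. Of the other Mrps18 paralogs, Mrps18c, the closest counterpart of bacterial S18, was at 16.3, 16.1 and 16.9 FPKM with vehicle and 17.7, 18.0 and 17.2 with perhexiline. Its groups did not overlap, and it did not pass (0.10 ± 0.053 SE; adjusted p = 0.292). The 3 paralogs thus ranged from Mrps18a at 75.7 through Mrps18b at 40.2 to Mrps18c at 16.4 FPKM with vehicle, in an order that was the same in every library.

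By background knowledge of the structures, 41 tested members hold the place of a bacterial ribosomal protein and 30 were added in mitochondrial ribosomes. Mrps18a and Mrps18b, relatives of S18 at other positions, were counted with the second class, and Mrpl55 and Mrps36 with neither. The first class had a median difference of -0.06 with 29 below 0, and the second a median of -0.03 with 18 below 0, against 47.1% below 0 over all tested genes. Under total-fragment scaling the medians were -0.005 and 0.02, with 23 and 13 below 0. The median of all tested genes was 0.06 under that scaling, and the 47.1% belongs to the deposited scaling. Their summed FPKM was 1750, 1770 and 1699 with vehicle and 1717, 1681 and 1616 with perhexiline for the first class, and 1104, 1122 and 1110 against 1140, 1134 and 1084 for the second. Both sums overlapped between the groups, the first only through perhexiline replicate 1. Each class had 7 members with an unadjusted p under 0.05, a smaller share than the 25.7% of all tested genes in either direction. All 7 were lower in the first class, whereas 3 were lower and 4 higher in the second. Of the 13460 tested genes, 1654 were lower and 1806 higher at that level. The difference between the classes was not tested.

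The 3 members that were not tested were Mrpl36, Mrpl53 and Mrps21l. Mrpl36 (chromosome 1, 31261370 to 31262466) and Mrpl53 (chromosome 4, 114807765 to 114808652) were listed at 0 in all 6 libraries. Such a 0 means that no fragment was assigned to the gene, which does not by itself show that its mRNA was absent. The other members of the large subunit were all above 0. Mrps21l, a copy named for its likeness to Mrps21, had at most 2 fragments in any library, while Mrps21 had 44.6, 44.1 and 47.8 FPKM with vehicle and 43.6, 44.1 and 41.3 with perhexiline. Reads shared by these copies cannot be told apart, so the split between them is uncertain. Of the genes spelled in lower case, mrpl9 stood at 25.2 ± 1.28 and 28.3 ± 0.612 FPKM with separated groups (adjusted p = 0.118), mrpl11 at 39.0 ± 1.79 and 37.8 ± 2.59, and mrpl24 at 25.8 ± 1.73 and 27.5 ± 1.15, and none of them passed.

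Mrpl30 was the least abundant tested gene. It was at 0.0248, 1.88 and 2.25 FPKM in vehicle replicates 1 to 3 and at 0.0197, 1.15 and 1.45 FPKM in perhexiline replicates 1 to 3. Replicate 1 of each group was near 0, with a lowest count of 1 fragment against a highest of 92 in the other libraries. The deposited coordinates place Mrpl30 on chromosome 9 from 44483875 to 44571331, where 76963 bases of it overlap Mitd1 on the opposite strand, a gene at 4.30 FPKM with vehicle and 5.40 FPKM with perhexiline. The next gene up, Mrpl1, was at 3.99, 6.54 and 7.60 FPKM with vehicle and 5.10, 3.33 and 5.94 with perhexiline, and its low library with perhexiline was replicate 2. The sources used here leave the use of strand in counting unstated. In all, 12 members overlapped another gene of the table, among them Mrpl47 with Actl6a over 1443 bases and Mrps7 with Gga3 over 772 bases, and the levels of such genes are uncertain to that extent.

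The members lay on 19 chromosomes, with 12 genes each on chromosomes 1 and 10, of which 10 and 9 were of the large subunit. Some started close to a gene read in the opposite direction. Within 1000 bases, 16 of the 73 tested members (21.9%) had such a divergent protein-coding neighbour, against 9.01% of 11876 tested protein-coding genes. Mrpl46 and Mrps11, of the large and small subunit, were each other's neighbour with starts 72 bases apart in the deposited coordinates. In the GRCr8 build of the promoter sequences given below, these starts were 234 bases apart. Mrpl46 stood at 17.4, 18.7 and 18.7 FPKM with vehicle and 17.4, 17.3 and 18.2 with perhexiline. Mrps11 stood at 27.2, 28.1 and 25.2 FPKM against 27.6, 24.1 and 26.2. Both pairs of groups overlapped, and their differences were alike at -0.05. Mrps12 started 16 bases from Sars2, the mitochondrial seryl-tRNA synthetase, and Mrpl47 266 bases from Ndufb5, a complex I subunit at 172 ± 1.23 and 146 ± 10.8 FPKM (adjusted p = 0.0511). Mrps18b lay 584 bases from Ppp1r10, a regulatory subunit of protein phosphatase, which rose from 30.9 ± 1.34 to 37.8 ± 2.15 FPKM (adjusted p = 0.0377). It passed without vehicle replicate 3 or perhexiline replicate 1 and in none of the other 4 fits without 1 library, with adjusted p up to 0.126. These neighbours were named after their values were seen.

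Promoter sequences from RefSeq, in GRCr8 coordinates that are not those of the deposited table, were at hand for 60 of the 76 members and run from 250 bases before to 50 after the gene start. Those of Mrpl46, whose window shares 267 bases with that of Mrps11, and of Mrps18b are shown for the divergent pairs just described. That of Ptcd3 is shown as a mitoribosomal protein under another name that passed the test. The promoter of Mrpl16, the called member, was not among the 60. Capitals mark matches to the searched words, and the rest is in lower case, each read 5′ to 3′ along the gene's strand.
Mrpl46, chr1:142116981-142117280, minus strand: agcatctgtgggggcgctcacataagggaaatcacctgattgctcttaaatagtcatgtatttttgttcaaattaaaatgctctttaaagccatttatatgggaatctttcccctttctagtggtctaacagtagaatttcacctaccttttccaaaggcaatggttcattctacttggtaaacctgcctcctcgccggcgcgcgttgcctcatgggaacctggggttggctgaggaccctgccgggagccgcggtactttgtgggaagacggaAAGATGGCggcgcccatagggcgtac
Mrps18b, chr20:2842756-2843055, plus strand: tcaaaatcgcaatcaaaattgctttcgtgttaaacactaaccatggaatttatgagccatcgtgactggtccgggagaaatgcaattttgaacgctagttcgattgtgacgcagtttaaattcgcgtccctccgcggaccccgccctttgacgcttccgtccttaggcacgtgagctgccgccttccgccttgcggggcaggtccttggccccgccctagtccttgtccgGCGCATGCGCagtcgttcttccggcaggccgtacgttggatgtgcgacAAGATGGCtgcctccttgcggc
Ptcd3, chr4:105507933-105508232, minus strand: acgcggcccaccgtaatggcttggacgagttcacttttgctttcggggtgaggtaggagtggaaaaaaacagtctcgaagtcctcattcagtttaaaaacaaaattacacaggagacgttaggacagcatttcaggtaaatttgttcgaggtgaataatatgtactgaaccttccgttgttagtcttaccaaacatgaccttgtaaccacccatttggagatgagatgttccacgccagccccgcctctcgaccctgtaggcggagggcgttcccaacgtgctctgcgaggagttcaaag

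The 3 words searched on both strands were that of nuclear respiratory factor NRF1 (in Mrps18b, the longer capital run), CCGGAAGT for ETS factors such as GABPA, and AAGATGGC for YY1, regulators known for nuclear genes of mitochondria. None of the words contains another. The NRF1 word was in 9 of the 60 member promoters, in 10.3% of those of 8977 tested protein-coding genes and in 4.25% of all 33469 promoters. The ETS word was in 8 of the 60 (13.3%), in 8.56% and in 3.81%. The YY1 word was in 15 of the 60, in 5.86% and in 3.17%. At least 1 of the 3 was in 27 of the 60 member promoters (45.0%), against 22.1% of the tested protein-coding genes and 10.3% of all promoters. By subunit, the YY1 word was in 8 of 38 large and 7 of 22 small subunit promoters. The promoter of Mrps18b held the NRF1 and YY1 words, that of Mrpl46 the YY1 word, and these words were not in the Ptcd3 window. The windows of Mrps11 and Mrps33 held none of the 3 words either. A link between words and differences was not tested, and a match describes letters in the promoter window only.

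Proteins of the mitoribosome that carry other names were measured as well, and 1 of 5 passed, against 6.66% of all tested genes. Ptcd3, a small subunit protein of the pentatricopeptide repeat family that lies at the mRNA entrance, stood at 39.8, 37.1 and 36.0 FPKM with vehicle and 31.3, 28.7 and 30.2 with perhexiline. All perhexiline libraries lay below all vehicle libraries. Ptcd3 fell to 0.798 times its vehicle mean, a difference of -0.32 ± 0.058 (SE; adjusted p = 0.0288). It passed without vehicle replicate 3 or perhexiline replicate 1, and its adjusted p was 0.0914 and 0.084 without vehicle replicates 1 and 2, and 0.101 and 0.0882 without perhexiline replicates 2 and 3. With no filter on low values it was 0.0604, and with the replicate number as a block 0.0599. Dap3, a GTP-binding protein of the small subunit, was at 39.9, 40.5 and 36.8 FPKM against 34.5, 35.04 and 32.5, again without overlap, and did not pass (adjusted p = 0.0854). Chchd1 (54.7 ± 1.26 and 51.8 ± 1.04 FPKM), Aurkaip1 (52.8 ± 5.97 and 48.8 ± 3.03) and Gadd45gip1 (35.1 ± 2.87 and 36.4 ± 0.641) did not pass either.

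Of 14 tested mitochondrial translation factors, 4 fell and none rose, with a median difference of -0.14. The shares of all tested genes were 3.11% lower and 3.55% higher. Mtif2, the initiation factor, went from 12.7, 12.7 and 13.5 FPKM to 9.94, 10.3 and 10.3 FPKM, 0.784 times its vehicle mean (adjusted p = 0.0281). Gfm2, an elongation factor family member that recycles mitoribosomes, went from 18.2 ± 0.497 to 14.3 ± 0.811 FPKM (adjusted p = 0.0291). Guf1, related to a bacterial factor that moves ribosomes back, went from 7.86 ± 0.394 to 6.13 ± 0.108 FPKM (adjusted p = 0.0427). Oxa1l, which inserts new proteins into the inner membrane and was named after its value was seen, went from 77.5 ± 2.45 to 66.6 ± 2.45 FPKM (adjusted p = 0.0443). The count was 2 without vehicle replicate 3 or with total-fragment scaling. It was 0 in each of the other 5 fits without 1 library, and with no filter on low values.

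Calls over all tested genes were 3.11% lower and 3.55% higher. Among 29 tested genes of mitoribosome assembly and RNA modification, the median was -0.02. With total-fragment scaling it was 0.03, where that of all tested genes was 0.06. Of the 29, 1 fell, near the share of all genes, and none rose. That gene was Lrpprc, which stabilises mitochondrial mRNAs, at 61.3, 60.4 and 56.3 FPKM with vehicle and 50.6, 50.2 and 51.9 with perhexiline (adjusted p = 0.0450). It passed in 1 of the 6 fits without 1 library, that without vehicle replicate 3. Its highest adjusted p was 0.147 without perhexiline replicate 2. Lrpprc did not pass with total-fragment scaling (0.0705), with no filter (0.0768) or with the replicate number as a block (0.109). None of 18 tested mitochondrial aminoacyl-tRNA synthetases passed in limma, and limma-voom called 1 lower. Of the 18, 4 had an unadjusted p under 0.05 in limma, all lower, against 25.7% of all tested genes in either direction. The most abundant, Gars and Kars, which also serve the cytosol, stood at 121.8 ± 2.75 and 75.1 ± 2.13 FPKM with vehicle and 125 ± 2.26 and 78.0 ± 2.27 with perhexiline. Among 15 regulators of mitochondrial gene expression, Myc rose 2.19-fold (adjusted p = 0.00805) and passed in all 6 fits without 1 library. Pprc1, a coactivator related to PGC-1, rose from 18.5 ± 0.734 to 22.7 ± 1.17 FPKM (adjusted p = 0.0383). Ppargc1a, which encodes PGC-1 alpha, fell from 30.5 ± 1.11 to 24.7 ± 1.52 FPKM (adjusted p = 0.0365). Pprc1 passed in 1 of these 6 fits, without perhexiline replicate 1, and Ppargc1a in none. Their highest adjusted p were 0.13 and 0.122 without perhexiline replicate 2. They were at 0.0747 and 0.0732 with no filter, and at 0.0745 and 0.0926 with the replicate number as a block.

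The mRNAs that the mitoribosome translates come from the mitochondrial genome. Of these 13 mRNAs, 5 fell and none rose, against 3.11% and 3.55% of all tested genes. All 13 differences were below 0 (47.1% over all tested genes), with a median of -0.34. COX2, a core subunit of cytochrome oxidase, went from 7881, 6736 and 7665 FPKM to 5519, 4777 and 4717 FPKM (adjusted p = 0.0245). ATP6, of the ATP synthase, went from 10954 ± 860 to 7960.4 ± 525 FPKM (adjusted p = 0.0368), and ND2, of complex I, from 5607 ± 547 to 4115 ± 365 (adjusted p = 0.0442). CYTB and ND4, named after their values were seen, were the others that passed. The count was 7 without perhexiline replicate 1, 1 without vehicle replicate 3, and 0 in each of the other 4 fits without 1 library, while limma-voom called 10. With no filter on low values it was 0, with total-fragment scaling 3, and with the replicate number as a block 4.

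Beside related gene families, the median difference of the mitoribosomal genes lay between those of the respiratory chain and of the cytosolic ribosome. The 80 tested nuclear genes of the respiratory chain and ATP synthase had a median difference of -0.19, with 77 below 0 and 11 called, all lower. The 81 tested cytosolic ribosomal protein genes had a median of 0.11, with 68 above 0 and 2 called, Rpl13a and Rpl28, both higher. The corresponding values for the mitoribosome were -0.06, 48 below 0 and 25 above, and 1 called. All tested genes together had a median of 0.01, with 47.1% below 0, 3.11% called lower and 3.55% called higher. Under total-fragment scaling the medians were -0.14 for the respiratory genes, with 6 called lower, and 0.16 for cytosolic ribosomal genes, with 11 called higher. The median of all tested genes was 0.06 under that scaling. The 11 calls of the respiratory genes were 21 with limma-voom, 19 without perhexiline replicate 1, 9 without vehicle replicate 3, 1 without vehicle replicate 2 and 0 in each of the other 3 fits without 1 library. The 2 calls of the cytosolic genes were 0 in each fit without 1 library, where without vehicle replicate 3 another 1 was called lower, and 4 with limma-voom. With no filter on low values, and likewise with the replicate number as a block, the counts were 1 for the respiratory and 0 for the cytosolic genes. No test was made of the differences between these lists.

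**Figure D4:**
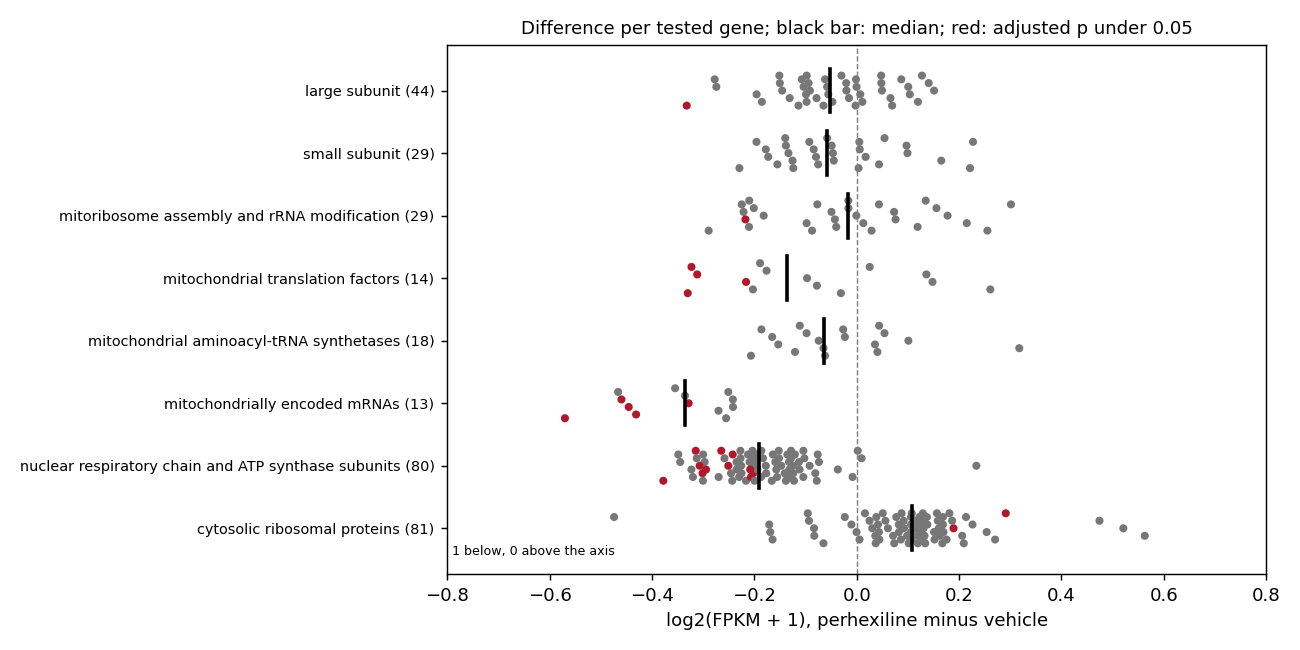
Difference in log2(FPKM + 1), perhexiline minus vehicle, for each tested gene of 8 groups (numbers tested in brackets), with a black bar at the median and called genes in red. Both mitoribosomal subunits have medians near -0.05, mRNAs of the mitochondrial genome lie wholly below 0, and most cytosolic ribosomal protein genes lie above 0.

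Cell type markers moved in the same libraries. For comparison, 3.11% of all tested genes were called lower, 3.55% were called higher, and 25.7% had an unadjusted p under 0.05. Of 11 tested cardiomyocyte markers, 3 fell (Myh6, Tnni3 and Myl2) and none rose, with per-library sums of 19049 to 24235 FPKM with vehicle and 17177 to 20123 with perhexiline. Of 8 tested macrophage markers, 2 fell (C1qa and Mrc1), with sums of 47.9 to 52.8 and 28.96 to 42.02 FPKM. Of 8 fibroblast markers, Dcn and Pdgfra rose and Col3a1 fell, with sums of 1043 to 1083 and 1003 to 1050 FPKM. None of 8 smooth muscle and pericyte markers or 4 tested endothelial markers passed in limma, with 5 and 0 at an unadjusted p under 0.05 and 3 and 0 called by limma-voom. Smooth muscle and pericyte markers summed to 789 to 1122 FPKM with vehicle and 609.0 to 801.7 with perhexiline, and endothelial markers to 16.7 to 19.8 and 18.4 to 19.3 FPKM. No marker of these lists passed without vehicle replicate 1, perhexiline replicate 2 or perhexiline replicate 3, and only 1, a fibroblast marker, without vehicle replicate 2. Without vehicle replicate 3 the cardiomyocyte count was 5 and the smooth muscle count 3, and without perhexiline replicate 1 the smooth muscle count was 2. With no filter on low values the cardiomyocyte and macrophage counts were 0 and 1 fibroblast marker was higher. With the replicate number as a block the cardiomyocyte and macrophage counts were 0 and 2 fibroblast markers were higher. The limma-voom fit called 6 cardiomyocyte and 3 macrophage markers lower. Median differences were -0.37 for cardiomyocyte (10 of 11 below 0), -0.33 for macrophage (8 of 8) and 0.01 for fibroblast markers (4 of 8). They were -0.37 for smooth muscle and pericyte (5 of 8) and 0.11 for endothelial markers (1 of 4). Over all tested genes the median was 0.01, with 47.1% below 0. An unadjusted p under 0.05 was reached by 8 cardiomyocyte and 4 macrophage markers, all lower. The part of these shifts in the values of the mitoribosomal genes was not tested.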

How the data were processed

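Poly(A) RNA from 3 vehicle and 3 perhexiline libraries was grouped by the sample labels. The authors deposited FPKM per gene and library with gene lengths and coordinates, per the file headers. HISAT2 2.0.5 and DESeq2 are among the tools used, per the submitters' processing notes, with build, annotation, counter and strand setting not given in the sources used here. Multiplied by gene length, 100% of positive values were whole multiples of a per-library step (tolerance 0.01), taken as fragments.

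Genes with at least 1 FPKM in at least 3 of 6 libraries entered a limma 3.58.1 fit (R 4.3.3) of log2(FPKM + 1), with a trended prior and treatment as the only term. The tests were two-sided, with Benjamini-Hochberg adjustment over all 13460 genes and a threshold of 0.05. The fit was also run on data simulated with the same dispersion for every gene, and no conclusion is drawn from that run. Folds are ratios of mean FPKM, and the log2 scale understates changes of low genes. Lists are described by counts and medians.

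The members and lists were chosen with earlier results of these data known. Named were called members, the 3 most and least abundant and the 3 with the largest differences in each direction per subunit, Mrps18 paralogs, Mrps30, Mrps36, untested members, mitoribosomal proteins under other names, and up to 3 called genes (or the 2 most abundant) per related list. Genes outside this rule were chosen after their values were seen, as were the cytosolic, respiratory and mitochondrial mRNA lists' matches to the table. Replicates were distinct libraries (chi-square over degrees of freedom, 4.7 to 8.14). Alternatives were a pseudocount of 0.1, no filter, a mean FPKM of at least 5, upper-quartile and total-fragment scaling, limma-voom, the replicate number as a block, and each library left out. Tested members other than Mrpl30 and Mrpl1 had 180 to 2519 fragments per library.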

Additional observations from a re-analysis of the deposited data

How the results depend on the processing

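The count of all genes called, 896 with all libraries, was 87 to 841 in the fits without 1 library, 162 with no filter on low values, 1562 with limma-voom and 173 with the replicate block. The single fall in the large subunit, that of Mrpl16, was kept with limma-voom, a pseudocount of 0.1, a mean FPKM of at least 5 and upper-quartile scaling, and became 0 with no filter, total-fragment scaling and the replicate block (adjusted p = 0.0598), and 0 to 1 in the fits without 1 library. Small subunit calls were 0 to 1 in each direction in those fits. The large subunit median ranged from -0.055 to -0.030 and the small subunit median from -0.077 to -0.036 without 1 library, and they were 0.0018 and -0.0049 under total-fragment scaling. Minus the median of all genes, they were -0.06 and -0.07 under that scaling and in the main analysis alike. For 41 named genes, 15 of 532 alternative values changed sign without a call on either side, 80 lost a call and 2 gained one. Only named genes called in the main analysis, a minority of the 41, could lose a call, so 532 is not the base for the 80. The causes were not tested. Adding the 3 genes in lower case, or placing subunits by structure, both chosen after seeing the data, left the counts of calls as they were. The labels do not say whether replicate numbers pair the samples. Correlations of deviations were -0.023, -0.101 and -0.039 for same-numbered libraries. These show no shared shift over the tested genes but do not decide whether cultures were paired. Mrpl30 was near 0 in replicate 1 of both groups. Depth limits Mrpl30 most, with as few as 1 fragment in a library.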
